A study of Mus musculus with 8 samples.

Results

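The nuclear genes of the mitochondrial respiratory chain were examined across mouse bone marrow adipocyte cultures. They were taken by symbol: names that begin with Nduf, Uqcr or Atp5, the Cox4 to Cox8 names, and Sdha, Sdhb, Sdhc and Sdhd, with pseudogene (-ps) names left out. Of 54134 genes, 92 had such a name, and the 88 that reached 1 TPM (a read count divided by gene length, with an equal sum in each library) in at least 2 libraries are described, among 14985 genes that passed the same filter. None of the 88 passed through 1 group alone. They comprised 46 genes named for complex I, 4 of complex II, 8 of complex III, 15 of complex IV and 15 of complex V. The 4 names under the filter were Cox7b2 and Cox8c, at 0 TPM in all 8 libraries, Cox8b, the heart and brown fat form of subunit 8, above 0 in only 2 GC+GW9662 libraries (0.269 and 1.76 TPM), and Atp5l, at 0.0748 to 1.30 TPM. Among the lowest inside it were Atp5g2 at 0.467 to 3.72 TPM, Cox6a2 at 0.364 to 5.05 TPM and Cox4i2 at 0.330 to 6.16 TPM.

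RNA came from wild-type bone marrow stem cells that had been turned into adipocytes over 14 days with a StemPro adipogenesis kit, so every group shares that induction. Control cultures (n = 2) received no further agent by the labels, GC cultures (n = 3) were treated for 24 hours with DEX (dexamethasone, a synthetic glucocorticoid) at 1e-06 M, and GC+GW9662 cultures (n = 3) received that dose with GW9662, an antagonist of the fat cell regulator PPARγ, whose dose is not given in the sources used here. Nothing in the labels says whether replicates were separate cultures or animals, so the tests measure only the spread between these libraries. Control libraries held the highest levels of Fkbp5 (463 and 429 TPM) and Tsc22d3 (572 and 543 TPM), genes that glucocorticoids are known to induce. Libraries labelled GC held 32.5, 80.3 and 62.8 TPM of Fkbp5 and 50.9, 65.4 and 62.7 TPM of Tsc22d3, which goes against the label. GC+GW9662 libraries, given the same dexamethasone dose, held 104, 78.8 and 104 TPM of Fkbp5 and 432, 401 and 455 TPM of Tsc22d3, also below Control. Each direction below is therefore that of the libraries as labelled. Adipocyte markers were present, with Adipoq at 167 and 173 TPM in Control, 2.49 to 4.96 in GC and 246 to 261 in GC+GW9662, but Lep was at 0 in every library. Of the 8 adipocyte markers that could be tested, 3 were higher and 2 lower in GC+GW9662 than in Control, so Adipoq does not stand for the list. The shares of all tested genes were 14.1% and 48.6%. The 12 macrophage markers summed to 31427 to 32347 TPM in Control, 9939 to 10433 in GC and 24853 to 28898 in GC+GW9662, against 1438 to 1455, 321 to 340 and 1312 to 1473 for the 10 adipocyte markers. Marrow stroma markers (11 genes) summed to 12422 to 12964 TPM in Control, 2606 to 2747 in GC and 8157 to 9656 in GC+GW9662. Of the 10 stroma markers tested, 9 were lower and 0 higher in GC+GW9662 than in Control (median log2 change -2.26). Their mean sum was 0.709 times that in Control, so it does not stand for the list. Of the 12 macrophage markers 7 were lower and 0 higher in that comparison (median -0.75). In GC against Control 10 macrophage markers were lower and 1 higher (median -3.98). Their mean sum there was 0.321 times that in Control. The sum of the neutrophil markers (6 genes) was highest in GC, at 249 to 549 TPM. Only 1 of these 6 reached 1 TPM in at least 2 libraries, so the sum does not show 6 genes moving together. In such bulk RNA, fewer cells of a type and less RNA per cell cannot be told apart.

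The respiratory chain passes electrons from NADH (complex I) and succinate (complex II) through complex III and cytochrome c to oxygen at complex IV, and the proton gradient this builds drives ATP synthesis by complex V. Complexes I, III, IV and V mix subunits encoded in the nucleus with subunits encoded on the mitochondrial chromosome, whereas complex II is wholly nuclear. In fat cells the chain takes up electrons freed when fatty acids are burned and supplies ATP for lipid turnover. Its nuclear genes are known to be driven through NRF1, GABP (an ETS factor), YY1 and the estrogen-related receptors, with PGC-1 coactivators.

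The RefSeq promoter table (GRCm38.p6; 250 bases before to 50 after each start) matched 73 of the 88 genes by gene ID. The letters of 4 motifs were searched on both strands. GCGCATGCG (NRF1) occurred in 9 of the 73 genes (12.3%), against 4.13% of the 9898 tested genes with a promoter entry. AAGATGGC (YY1) occurred in 11 (15.1%, against 5.24%), AAGGTCA (the nuclear receptor letters bound by estrogen-related receptors) in 7 (9.59%, against 3.73%), and ACTTCCGG (ETS) in 5 (6.85%, against 9.17%). Over all 27025 genes of the promoter table the shares were 1.95% for GCGCATGCG, 3.19% for AAGATGGC, 5.38% for AAGGTCA and 4.31% for ACTTCCGG. A match is a description of letters, not a site shown to be used. Printed here are the 250 bases before the start of 7 genes: Sdha and Sdhd, and Atp5b and Atp5e, are pairs in 1 enzyme of which Sdhd and Atp5e rose in GC+GW9662 against GC while Sdha and Atp5b did not pass, Atp5k and Ndufaf4 share the NRF1 motif and moved in opposite directions, and Uqcr11 holds the ETS motif. The stretches are chr13:74350241-74350490 (minus strand), chr9:50603850-50604099 (minus), chr10:128083057-128083306 (plus), chr2:174464102-174464351 (minus), chr5:108434400-108434649 (minus), chr4:24897833-24898082 (plus) and chr10:80406822-80407071 (minus), written 5′ to 3′ on the strand of the gene, with matches to any of the 4 motifs in capitals and the last base next to the start.
Sdha: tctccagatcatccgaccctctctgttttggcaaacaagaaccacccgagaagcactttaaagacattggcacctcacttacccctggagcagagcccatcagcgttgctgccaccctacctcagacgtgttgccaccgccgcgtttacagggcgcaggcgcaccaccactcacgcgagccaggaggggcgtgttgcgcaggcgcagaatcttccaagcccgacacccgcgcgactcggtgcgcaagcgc
Sdhd: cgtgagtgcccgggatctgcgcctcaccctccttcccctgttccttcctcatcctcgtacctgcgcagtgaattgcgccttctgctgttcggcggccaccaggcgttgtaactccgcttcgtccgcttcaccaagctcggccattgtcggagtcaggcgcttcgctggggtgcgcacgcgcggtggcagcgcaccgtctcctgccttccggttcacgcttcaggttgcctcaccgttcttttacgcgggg
Atp5b: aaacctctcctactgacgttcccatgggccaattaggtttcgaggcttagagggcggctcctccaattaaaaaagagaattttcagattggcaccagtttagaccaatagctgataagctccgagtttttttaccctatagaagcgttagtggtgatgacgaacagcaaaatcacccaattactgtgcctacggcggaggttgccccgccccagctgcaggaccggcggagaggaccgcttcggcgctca
Atp5e: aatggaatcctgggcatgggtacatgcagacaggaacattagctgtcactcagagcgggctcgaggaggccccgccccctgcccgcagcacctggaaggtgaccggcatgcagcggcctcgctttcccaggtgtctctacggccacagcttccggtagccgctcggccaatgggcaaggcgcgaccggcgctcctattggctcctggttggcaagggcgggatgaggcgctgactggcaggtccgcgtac
Atp5k: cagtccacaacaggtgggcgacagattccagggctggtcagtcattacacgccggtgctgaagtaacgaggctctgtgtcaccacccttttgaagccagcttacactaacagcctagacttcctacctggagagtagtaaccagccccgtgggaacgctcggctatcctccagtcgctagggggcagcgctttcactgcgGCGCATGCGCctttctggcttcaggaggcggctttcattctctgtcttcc
Ndufaf4: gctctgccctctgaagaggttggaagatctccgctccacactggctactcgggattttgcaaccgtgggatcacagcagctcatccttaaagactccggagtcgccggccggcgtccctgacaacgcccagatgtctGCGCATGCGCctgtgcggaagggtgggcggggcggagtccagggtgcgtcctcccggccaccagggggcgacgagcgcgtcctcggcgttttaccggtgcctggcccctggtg
Uqcr11: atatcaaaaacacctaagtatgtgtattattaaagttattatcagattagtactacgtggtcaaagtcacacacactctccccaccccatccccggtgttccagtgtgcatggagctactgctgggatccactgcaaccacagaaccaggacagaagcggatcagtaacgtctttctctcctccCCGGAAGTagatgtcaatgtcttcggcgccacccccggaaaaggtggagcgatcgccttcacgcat

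In these stretches the NRF1 letters began 50 bases before the start of Atp5k and 113 bases before that of Ndufaf4, and the ETS letters 66 bases before that of Uqcr11. Neither complex II gene shown held any of the 4 motifs in these 250 bases, nor did Atp5b or Atp5e. Over the whole searched window, which runs on past the start, Sdhd and Atp5e do hold AAGGTCA and are counted in its share above, while Sdha and Atp5b hold none of the 4. In that window Atp5k also holds AAGGTCA and Uqcr11 also holds GCGCATGCG, both outside the capitals printed here. Ndufaf4 holds the NRF1 letters alone.

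Nuclear respiratory chain transcripts were at their highest in the GC+GW9662 libraries. The 88 genes together held 20732 and 23242 TPM in Control, 25502, 16085 and 19291 TPM in the libraries labelled GC, and 38775, 44754 and 40804 TPM in GC+GW9662. That is 2.07% to 2.32%, 1.61% to 2.55% and 3.88% to 4.48% of all transcripts counted. Every GC+GW9662 library lay above every other library, and the GC and Control libraries overlapped. The mean sum in GC+GW9662 was 2.04 times that in GC and 1.88 times that in Control, and the mean sum in GC was 0.923 times that in Control. For 69 of the 88 genes each of the 3 GC+GW9662 libraries exceeded all 5 others, as they did for 13.2% of all tested genes. Group means ran GC+GW9662, Control, GC from high to low in 52 genes (14.9% of all tested genes) and GC+GW9662, GC, Control in 24 (8.90% of all tested genes).

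**Figure D1:**
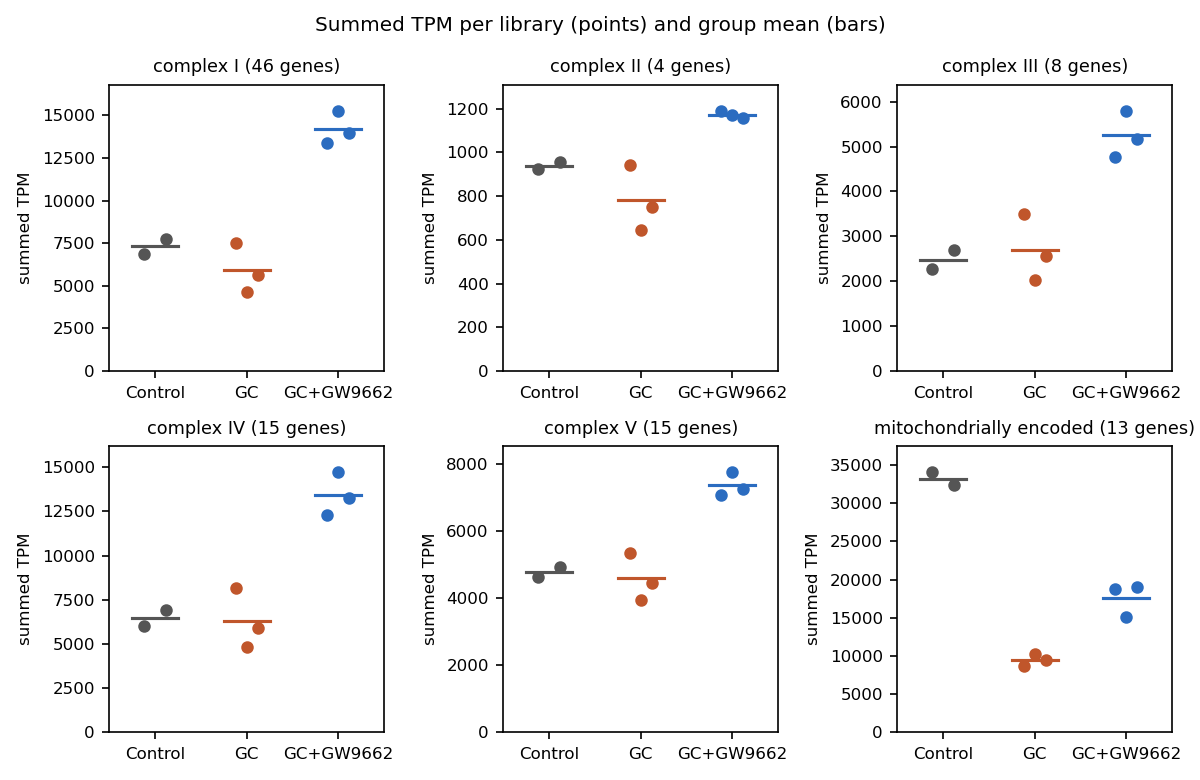
Summed TPM (y axis, linear from 0) of the genes of each complex and of the 13 mitochondrially encoded genes, 1 point per library and a bar at the group mean (Control n = 2, GC n = 3, GC+GW9662 n = 3). In all 5 nuclear panels the GC+GW9662 points lie above all others, whereas the mitochondrially encoded sum is highest in Control (32332 and 34067 TPM).

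Tested gene by gene on log2(TPM + 1) with limma, 74 of the 88 genes were higher in GC+GW9662 than in GC (adjusted p under 0.05), 3 were lower and 11 did not pass. Among all tested genes 28.3% were higher and 33.5% lower, and the median change was -0.11 against 1.17 for the 88 genes. Against Control, 68 of the 88 were higher in GC+GW9662, 3 lower and 17 did not pass, with a median of 0.89, where 14.1% of all tested genes were higher and 48.6% lower with a median of -0.50. Between GC and Control, 5 were higher, 28 lower and 55 did not pass, beside 16.2% and 39.1% of all tested genes. The median of that comparison was -0.32, close to the -0.38 of all tested genes, and it turned positive (0.22) under median-ratio scaling, which moved the median of all genes to 0.04. With that scaling 17 of the 88 were higher and 5 lower in GC than in Control, beside 27.2% and 26.9% of all tested genes, and all tested genes split into 29.3% higher and 31.7% lower in GC+GW9662 against Control. Comparisons with the same group share its libraries. The members' values are therefore given side by side, not as independent results.

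**Figure D2:**
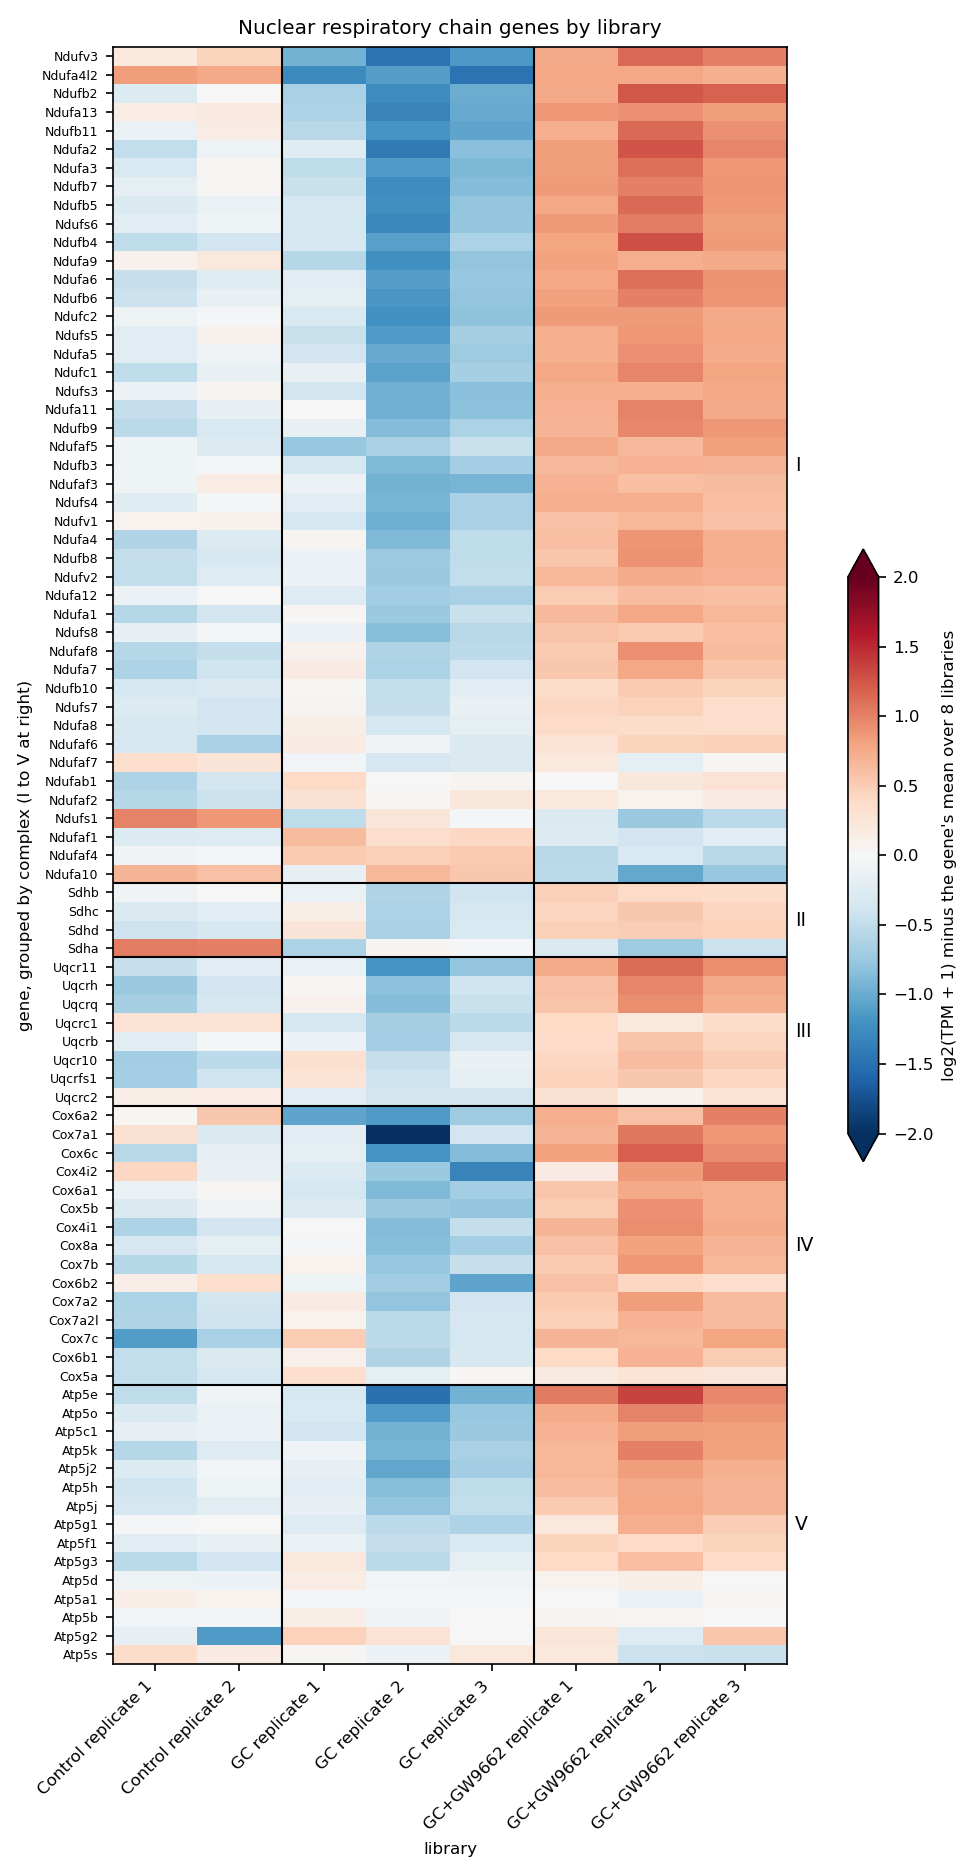
Heat map of the genes (rows, 1 of the 88 not shown, by complex and then by change between GC+GW9662 and GC) over 8 libraries (columns). Colour is log2(TPM + 1) minus the gene's mean over the libraries, red above and blue below, saturating at 2 in either direction. The 3 GC+GW9662 columns are red for most rows, with Ndufs1, Ndufaf1, Ndufaf4, Ndufa10 and Sdha as blue rows.

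GC replicate 1 stood apart from the other GC libraries for these genes. It was the highest of the 3 GC libraries in 79 of the 88 genes (89.8%), against 30.6% of all tested genes, and lay a median of 0.51 above the mean of the other GC libraries on the log2 scale, against -0.20 for all tested genes. Without it, 49 of the 88 were lower in GC than in Control and the median change was -0.50, beside 41.5% of all tested genes and their median of -0.28. The GC+GW9662 to GC comparison then gave 75 higher and 5 lower, with a median of 1.36, where 29.6% of all tested genes were higher and 42.5% lower with a median of -0.19. Without Control replicate 2, 10 of the 88 were lower in GC than in Control (28.8% of all tested genes), and without Control replicate 1, 16 were (28.2%). Also without Control replicate 1, 45 of the 88 were higher in GC+GW9662 than in Control, beside 6.11% of all tested genes.

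Changes also ran with exon length. The 88 genes had a median exon length of 1631 bases, against 3653 bases for all tested genes. Across all tested genes Spearman's rho between change and length was -0.26 for GC+GW9662 against GC and -0.65 for GC+GW9662 against Control, as a description, since genes share their libraries. Among the 88 genes it was -0.28 and -0.37 in the same order. When all tested genes were ranked by exon length and cut into 10 bins of equal number, the bin of 623 to 1390 bases held 31 genes of the chain. All 31 were higher in GC+GW9662 than in GC with a median of 1.31, where all genes of that bin had a median of 0.31 and 37.5% were higher. After a smooth length trend was taken from each library, 67 of the 88 were higher and 4 lower against GC (median 0.96), and 67 higher and 2 lower against Control (median 0.76). The part of length or of the marker levels above in these changes was otherwise not tested.

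**Figure D3:**
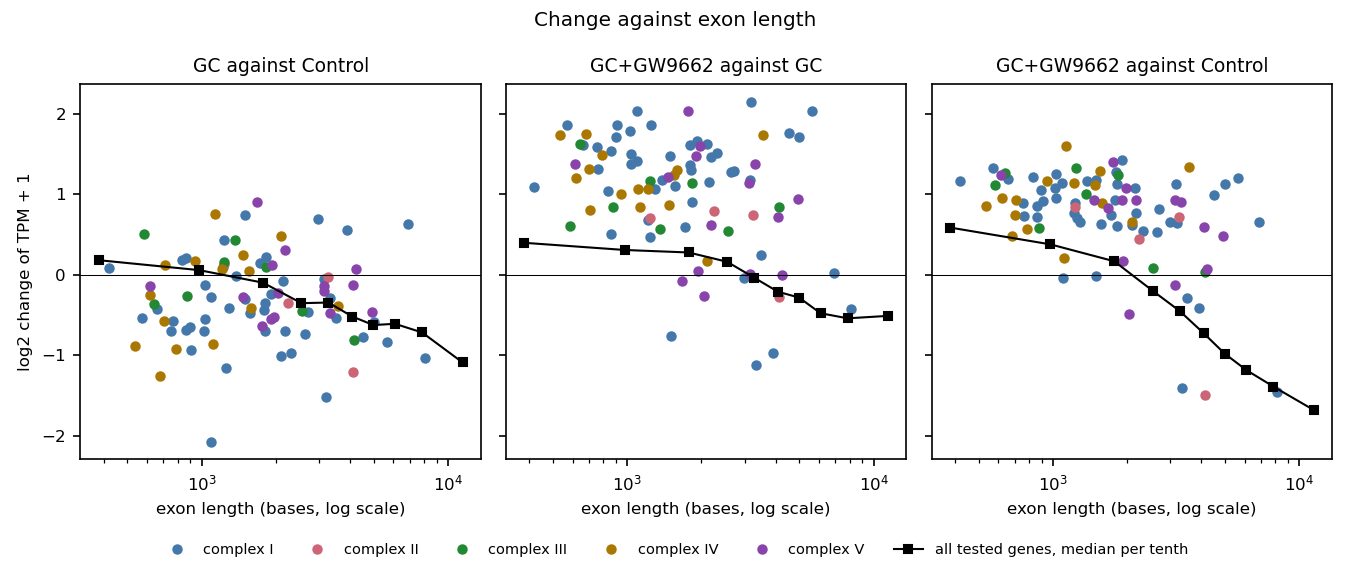
Log2 change of TPM + 1 (y axis) against exon length in bases (x axis, log scale) for the 88 genes, coloured by complex, in 3 comparisons. Black squares join the median change of all tested genes in each of 10 bins of exon length. In GC+GW9662 against GC most coloured points lie above the line, whose highest point is 0.40 in the shortest bin.

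Complex I, the NADH dehydrogenase, had changes that ran from -1.12 (Ndufa10) to 2.15 (Ndufv3) in log2 change between GC+GW9662 and GC, and most of its genes rose. Of the 46 genes with Nduf names, 39 were higher and 3 lower in GC+GW9662 than in GC (median 1.34), beside 28.3% and 33.5% of all tested genes. Against Control 39 were higher and 2 lower (0.87), beside 14.1% and 48.6%. In GC against Control 4 were higher and 21 lower (8.70% and 45.7%, median -0.45), near the 16.2%, 39.1% and -0.38 of all tested genes. The 46 include 8 assembly factors, Ndufa4 and Ndufa4l2, described below. Assembly factors were 2 of the 3 lower against GC and 3 of the 4 higher in GC. The matrix arm binds NADH and carries the flavin and iron-sulfur clusters. In it 15 of 16 genes were higher in GC+GW9662 than in GC and also than in Control. Ndufv3, an accessory subunit of the NADH-binding module, held 130 and 154 TPM (Control), 58.4, 40.0 and 50.4 TPM (GC) and 192, 249 and 227 TPM (GC+GW9662). These groups did not overlap, and the 3 GC+GW9662 libraries were the highest. Ndufv3 fell by 1.51 ± 0.18 (log2, SE; adjusted p = 0.00023) in GC against Control and rose by 2.15 ± 0.16 in GC+GW9662 against GC (adjusted p = 2e-05).

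The core flavoprotein subunits Ndufv1 and Ndufv2 and the iron-sulfur subunits Ndufs7 and Ndufs8 all rose in GC+GW9662, by 1.27, 1.16, 0.60 and 1.07 against GC and by 0.53, 1.08, 0.74 and 0.66 against Control. Of these 4 genes Ndufv1 alone passed between GC and Control, at -0.74 ± 0.17 (adjusted p = 0.0061), and it did not pass under median-ratio scaling (-0.20, adjusted p = 0.56). Its rise against Control passed in 14 of 20 alternatives. Ndufs1, the largest iron-sulfur core subunit, was the exception of the matrix arm. It held 76.9 and 70.3 TPM (Control), 26.4, 45.1 and 37.3 TPM (GC) and 30.8, 22.4 and 25.8 TPM (GC+GW9662). Control libraries were the highest and the other groups overlapped. Ndufs1 fell by 1.46 ± 0.23 in GC+GW9662 against Control (adjusted p = 0.0022) and by 1.03 ± 0.23 in GC against Control (adjusted p = 0.0056), while its change of -0.43 between GC+GW9662 and GC did not pass (adjusted p = 0.10). Its exons span 8086 bases, in a length bin where all tested genes had a median of -1.39 in GC+GW9662 against Control. With the length trend removed both falls of Ndufs1 lost their call, at -0.11 in GC+GW9662 against Control (adjusted p = 0.51) and -0.21 in GC against Control (adjusted p = 0.19).

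The membrane arm pumps protons and is built around mitochondrially encoded subunits. In it 18 of 19 nuclear genes were higher in GC+GW9662 than in GC (median 1.53) and 18 of 19 higher than in Control (1.08). The shares of all tested genes were 28.3% and 14.1%. Ndufb4, an accessory subunit there, stood at 15.3 and 16.8 TPM (Control), 17.3, 9.86 and 13.9 TPM (GC) and 38.8, 55.6 and 40.8 TPM (GC+GW9662). Its change was 1.66 ± 0.22 against GC (adjusted p = 0.00039) and 1.42 ± 0.25 against Control (adjusted p = 0.0028), and it has a near-identical copy, so its level is uncertain. Ndufa2 of the matrix arm stood at 470 and 621 TPM (Control), 560, 249 and 372 TPM (GC) and 1188, 1586 and 1310 TPM (GC+GW9662), a change of 1.85 ± 0.28 against GC (adjusted p = 0.00071). Here Control and GC overlapped. The exception was Ndufa10, an accessory subunit with a kinase-like fold, at 127 and 119 TPM (Control), 70.4, 125 and 115 TPM (GC) and 54.1, 38.2 and 46.1 TPM (GC+GW9662). All GC+GW9662 libraries lay below all others, at -1.12 ± 0.22 against GC (adjusted p = 0.0032) and -1.41 ± 0.25 against Control (adjusted p = 0.0029). Ndufab1, the mitochondrial acyl carrier protein found in both arms, rose in GC and in GC+GW9662 against Control, by 0.64 ± 0.18 and 0.66 ± 0.18, and stood at 0.03 between them.

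The 8 assembly factors of the Ndufaf names, which build complex I but are not part of it, were mixed in direction. In GC against Control 3 were higher and 3 lower, beside 16.2% and 39.1% of all tested genes. In GC+GW9662 against GC 4 were higher and 2 lower, beside 28.3% and 33.5%. Ndufaf1, which acts early in assembly of the membrane arm, held 29.4 and 29.7 TPM (Control), 56.2, 46.1 and 48.4 TPM (GC) and 29.4, 27.4 and 30.9 TPM (GC+GW9662). Only the GC libraries were high, with changes of 0.74 ± 0.13 in GC against Control (adjusted p = 0.0018) and -0.76 ± 0.12 in GC+GW9662 against GC (adjusted p = 0.0009). Ndufaf4, whose promoter is shown above, held 8.99 and 9.28 TPM (Control), 14.1, 13.6 and 14.2 TPM (GC) and 6.19, 7.51 and 6.17 TPM (GC+GW9662), and it fell by 0.98 ± 0.14 in GC+GW9662 against GC (adjusted p = 0.00066). Ndufaf2, which is known to act late in assembly, stood at 15.0 and 16.6 TPM (Control), 28.4, 23.1 and 26.9 TPM (GC) and 26.5, 24.1 and 25.6 TPM (GC+GW9662). It rose in GC against Control by 0.69 ± 0.14 (adjusted p = 0.0041) and in GC+GW9662 against Control by 0.65 ± 0.14 (adjusted p = 0.0055). Of the 9 tested complex I assembly genes outside the Nduf names, 4 were higher and 1 lower in GC+GW9662 against GC.

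Ndufa4 and Ndufa4l2 carry Nduf names apart from their role: Ndufa4 is now placed in complex IV as a subunit of cytochrome c oxidase, and Ndufa4l2 is its paralog, known as a hypoxia-induced gene. Ndufa4 held 290 and 367 TPM (Control), 456, 240 and 310 TPM (GC) and 669, 817 and 728 TPM (GC+GW9662), and rose by 1.18 ± 0.22 against GC (adjusted p = 0.0024). Ndufa4l2 held 31.7 and 30.2 TPM (Control), 6.65, 7.56 and 5.59 TPM (GC) and 30.6, 30.4 and 29.1 TPM (GC+GW9662). It was low in the GC libraries alone, with the largest fall of the 88 genes in GC against Control (-2.08 ± 0.15, adjusted p = 1.7e-05). In GC+GW9662 against GC it rose by 2.04 ± 0.14, and against Control it stood at -0.04 ± 0.15 (adjusted p = 0.83).

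**Figure D4:**
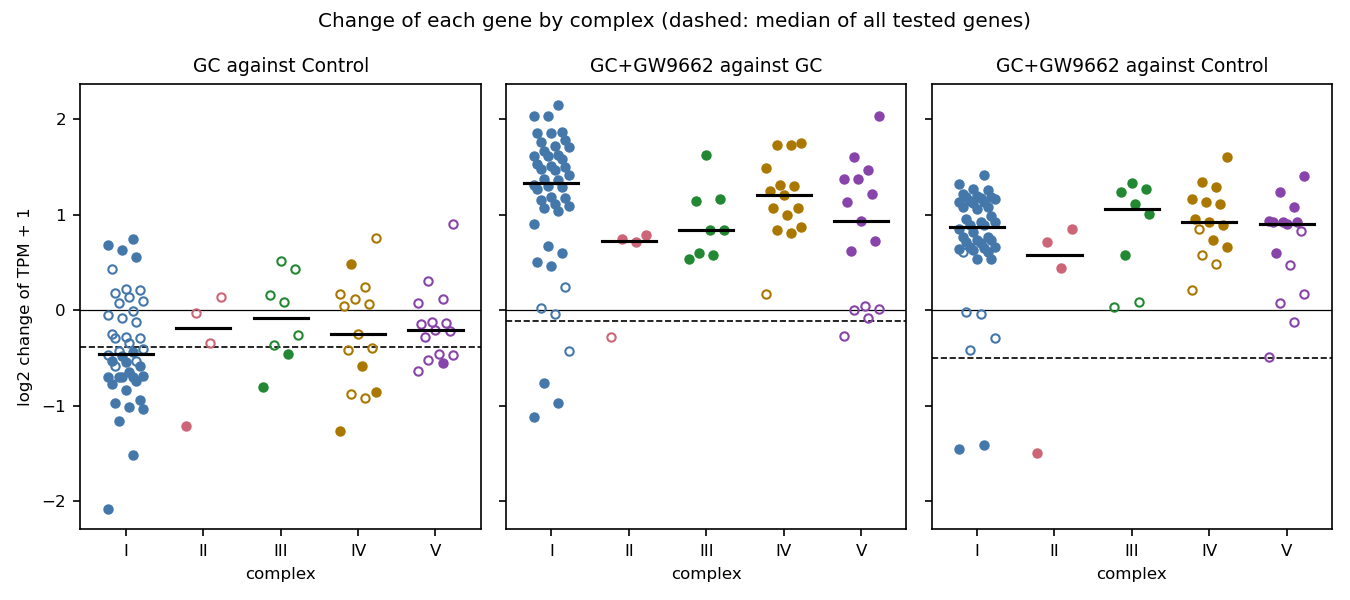
Log2 change of TPM + 1 (y axis) of each gene by complex (x axis) in 3 comparisons, with filled points for genes that passed at an adjusted p under 0.05 and open points for the others. Black bars are medians of the complex and the dashed line is the median of all tested genes (-0.38, -0.11 and -0.50 from left to right). The medians of all 5 complexes lie above the dashed line in the comparisons with GC+GW9662.

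Complex II, succinate dehydrogenase, split between its catalytic flavoprotein and its other subunits. Sdha, which binds FAD and oxidises succinate, held 279 and 276 TPM (Control), 87.9, 143 and 134 TPM (GC) and 112, 83.3 and 101 TPM (GC+GW9662). Control libraries were the highest by a wide margin, and the GC and GC+GW9662 libraries overlapped. Sdha fell by 1.21 ± 0.22 in GC against Control (adjusted p = 0.0018) and by 1.49 ± 0.22 in GC+GW9662 against Control (adjusted p = 0.0019), and its change of -0.28 between GC+GW9662 and GC did not pass (adjusted p = 0.24). Sdhb, the iron-sulfur subunit, held 203 and 211 TPM (Control), 193, 139 and 160 TPM (GC) and 294, 276 and 273 TPM (GC+GW9662). The membrane anchors that bind ubiquinone were also highest in GC+GW9662: Sdhc at 257, 278 and 258 TPM against 156 and 164 in Control, and Sdhd at 528, 534 and 526 TPM against 284 and 304. In GC+GW9662 against GC Sdhb, Sdhc and Sdhd rose by 0.79 ± 0.13, 0.75 ± 0.17 and 0.71 ± 0.20, and against Control by 0.44, 0.72 and 0.85. For Sdhb, Sdhc and Sdhd the rises against Control passed in 13, 18 and 18 of 20 alternatives, and the rise of Sdhd against GC passed in 16. Sdha exons span 4126 bases and those of Sdhd 1231 bases, and all tested genes of the length bin that holds Sdha had a median of -0.72 in GC+GW9662 against Control. Both falls of Sdha against Control passed in all 20 alternatives, removal of the length trend among them. Their smallest sizes were -0.77 in GC+GW9662 and -0.67 in GC.

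**Figure D5:**
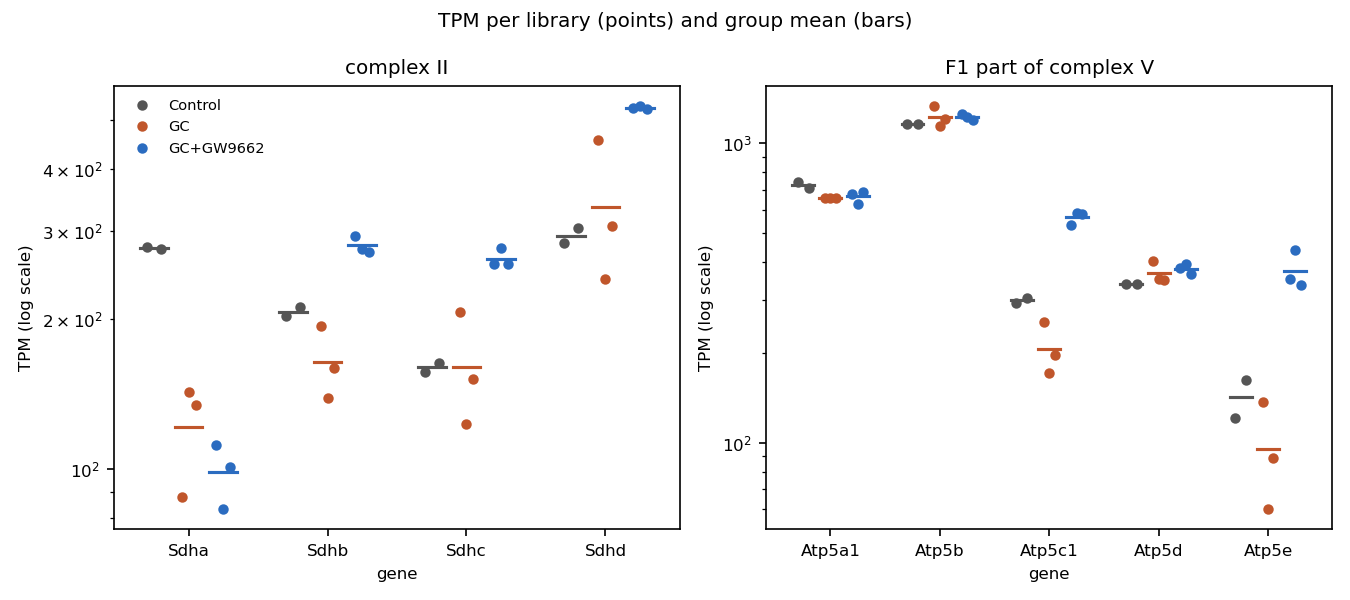
TPM (y axis, log scale) of the 4 complex II genes and of the 5 genes of the F1 part of complex V, 1 point per library and a bar at the group mean, by group. Sdha is highest in Control and the other complex II genes in GC+GW9662, and Atp5c1 and Atp5e rise in GC+GW9662, while no comparison of Atp5a1, Atp5b or Atp5d passed.

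All 8 complex III genes were higher in GC+GW9662 than in GC (median 0.84), beside 28.3% of all tested genes (14.1% against Control). Against Control 6 of them were higher, and the core proteins Uqcrc1 and Uqcrc2 were not, at 0.04 ± 0.12 (adjusted p = 0.81) and 0.09 ± 0.11 (adjusted p = 0.52). These large matrix-facing proteins were the only complex III genes called lower in GC, and neither call held under median-ratio scaling or with the length trend removed. Uqcrc1 held 182 and 182 TPM (Control), 116, 93.8 and 102 TPM (GC) and 196, 172 and 192 TPM (GC+GW9662), and fell by 0.81 ± 0.12 in GC (adjusted p = 0.00071), against -0.26 under both of those alternatives (adjusted p = 0.28 and 0.26). Uqcrc2 held 164 and 165 TPM (Control), 128, 116 and 116 TPM (GC) and 184, 159 and 182 TPM (GC+GW9662), and fell by 0.45 ± 0.11 in GC (adjusted p = 0.0084). Under median-ratio scaling the change of Uqcrc2 was 0.090 (adjusted p = 0.69). Uqcrfs1, the Rieske iron-sulfur protein, held 168 and 203 TPM (Control), 325, 203 and 236 TPM (GC) and 369, 389 and 359 TPM (GC+GW9662). It rose by 0.57 ± 0.17 against GC and by 1.01 ± 0.19 against Control (adjusted p = 0.02 and 0.0034), and the first of these passed in 13 of 20 alternatives. Among the small subunits Uqcr11 changed most, at 307 and 365 TPM (Control), 388, 185 and 246 TPM (GC) and 711, 920 and 807 TPM (GC+GW9662), a change of 1.63 ± 0.25 against GC (adjusted p = 0.00081). Uqcrh, the hinge protein that binds cytochrome c1, was the most abundant, at 1522, 2007 and 1718 TPM in GC+GW9662 and 575 to 1033 TPM in the other libraries.

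In complex IV, cytochrome c oxidase, 14 of 15 genes were higher in GC+GW9662 than in GC (median 1.20), and none was lower. The shares of all tested genes were 28.3% and 33.5%. Cox4i1, the widespread form of subunit 4 and the most abundant of the 88 genes, held 1765 and 2070 TPM (Control), 2683, 1475 and 1942 TPM (GC) and 4348, 5171 and 4543 TPM (GC+GW9662). Each GC+GW9662 library exceeded all others, and the GC and Control libraries overlapped. Its change was 1.24 ± 0.20 against GC (adjusted p = 0.0012) and 1.29 ± 0.23 against Control (adjusted p = 0.0029). Cox6a1, the widespread form of subunit 6a, held 1085 and 1205 TPM (Control), 932, 647 and 744 TPM (GC) and 1753, 2010 and 1968 TPM (GC+GW9662). It fell in GC by 0.58 ± 0.16 (adjusted p = 0.014), a call that held in 15 of 20 alternatives and shrank to -0.033 under median-ratio scaling (adjusted p = 0.93), and it rose in GC+GW9662 against GC by 1.32 ± 0.14 (adjusted p = 0.00012). Cox5a was the 1 gene that did not pass between GC+GW9662 and GC. It held 163 and 180 TPM (Control), 291, 201 and 235 TPM (GC) and 261, 280 and 271 TPM (GC+GW9662), and rose against Control by 0.48 ± 0.15 in GC (adjusted p = 0.028) and by 0.66 ± 0.15 in GC+GW9662 (adjusted p = 0.0068). The rise in GC passed in 13 of 20 alternatives and the rise in GC+GW9662 in 19.

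All 10 common forms of complex IV subunits and Cox7a2l, a factor that links complexes III and IV into supercomplexes, were higher in GC+GW9662 than in Control. Cox7a2l held 308 and 348 TPM (Control), 490, 321 and 370 TPM (GC) and 650, 759 and 723 TPM (GC+GW9662). Cox6c, an inner membrane subunit, rose most among the common forms, at 88.8 and 117 TPM (Control), 115, 56.8 and 71.1 TPM (GC) and 230, 299 and 253 TPM (GC+GW9662), a change of 1.73 ± 0.25 against GC (adjusted p = 0.00062), and it has near-identical copies. In GC+GW9662 against GC the zinc-binding subunit Cox5b rose by 1.30 and Cox8a by 1.20. The 4 tissue forms of subunits 4, 6a, 6b and 7a did not pass against Control, though all 4 were higher in GC+GW9662 than in GC. Cox6a2, the heart and muscle form, held 2.08 and 3.36 TPM (Control), 0.442, 0.364 and 0.830 TPM (GC) and 3.99, 3.50 and 5.05 TPM (GC+GW9662). GC libraries were the lowest, and Cox6a2 fell by 1.26 ± 0.25 in GC (adjusted p = 0.0029) and rose by 1.75 ± 0.22 in GC+GW9662 against GC (adjusted p = 0.00029). By the depth estimated from steps between low values, Cox6a2 rested on 3 to 38 reads a library. Cox7a1, the muscle and brown fat form, held 4.87 and 2.90 TPM (Control), 3.10, 0.170 and 2.66 TPM (GC) and 6.59, 8.87 and 7.64 TPM (GC+GW9662). Cox4i2, the lung form, held 0.330 to 6.16 TPM over the libraries, and Cox6b2, the testis form, was the most abundant of these 4 at 11.8 to 39.2 TPM. Levels of the common partners were far higher in each library, with Cox7a2 at 338 to 1048 TPM and Cox6b1 at 736 to 1807 TPM.

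Complex V, ATP synthase, had the lowest share of genes that rose in GC+GW9662, with 10 of 15 genes higher than in GC (median 0.94) and 9 of 15 higher than in Control (0.90). None was lower in either comparison. Among all tested genes 28.3% were higher than in GC and 14.1% higher than in Control. The F1 head makes ATP on alternating alpha (Atp5a1) and beta (Atp5b) subunits. Atp5a1 held 741 and 709 TPM (Control), 656, 658 and 655 TPM (GC) and 678, 624 and 689 TPM (GC+GW9662). Atp5b held 1158 and 1160 TPM (Control), 1329, 1143 and 1203 TPM (GC) and 1249, 1220 and 1197 TPM (GC+GW9662). Their largest group differences were -0.14 and 0.08, and no comparison of either gene passed. The gamma subunit Atp5c1, the rotating shaft, held 294 and 304 TPM (Control), 252, 171 and 196 TPM (GC) and 535, 587 and 581 TPM (GC+GW9662). It fell by 0.55 ± 0.16 in GC (adjusted p = 0.018), a call that held in 11 of 20 alternatives and shrank to -0.0057 under median-ratio scaling (adjusted p = 0.99). It rose by 1.47 ± 0.14 in GC+GW9662 against GC (adjusted p = 6.8e-05). Of the small stalk subunits, Atp5d (delta) held 338 to 405 TPM over all libraries and passed in no comparison. Atp5e (epsilon) held 121 and 162 TPM (Control), 137, 60.1 and 89.0 TPM (GC) and 352, 439 and 335 TPM (GC+GW9662), a change of 2.04 ± 0.28 against GC (adjusted p = 0.00046). Atp5b exons span 4237 bases and those of Atp5e 1756 bases, while Atp5d, at 1928 bases, is near Atp5c1 at 1908 bases. Whether exon length bears on the split among these genes was not tested.

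The 4 genes of the peripheral stalk, which holds the F1 head against rotation, were all higher in GC+GW9662 than in GC and in Control. Atp5o (OSCP), at its tip, held 319 and 356 TPM (Control), 317, 177 and 230 TPM (GC) and 653, 775 and 723 TPM (GC+GW9662), a change of 1.60 ± 0.19 against GC (adjusted p = 0.00024). Both membrane accessory genes rose against GC by 1.38, with Atp5k at 263 and 325 TPM (Control), 371, 203 and 249 TPM (GC) and 615, 788 and 683 TPM (GC+GW9662). Subunit c of the rotating ring is made from 3 genes that encode the same mature protein. Nearly all of its signal came from Atp5g3, at 591 and 663 TPM (Control), 1000, 601 and 764 TPM (GC) and 1138, 1313 and 1124 TPM (GC+GW9662), a change of 0.62 ± 0.18 against GC (adjusted p = 0.016) that passed in 15 of 20 alternatives. Atp5g1 held 1.49 to 5.30 TPM and Atp5g2 0.467 to 3.72 TPM. Both have near-identical copies and Atp5g3 has none, so the split of the signal between the 3 genes is uncertain. Atp5s, a coupling factor gene, held 6.84 to 12.8 TPM and passed in no comparison.

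Some levels are uncertain because other genes have a nearly identical coding sequence. In GENCODE M21 transcripts 20 of the 88 genes had at least 1 other gene matching 80% or more of the coding sequence at 95% identity or more, with 3 such genes each for Cox7c, Atp5h and Uqcrb. Cox7c, a common subunit with abundant partners, had only 1.60 to 8.80 TPM, and Atp5g1, Atp5g2, Ndufab1, Ndufb4, Uqcr11, Cox5b, Cox6c, Atp5k and Atp5o also belong to the 20. Pseudogene rows carried signal of their own, with Uqcrh-ps1 at 158 to 570 TPM and Atp5k-ps2 at 83.4 to 321 TPM. Of the 68 genes without such a copy, 56 were higher and 3 lower in GC+GW9662 than in GC (median 1.16), and of the 20 with one, 18 were higher and 0 lower by limma (median 1.26). Atp5g2, at 3.46, 2.96 and 2.25 TPM in GC and 2.83, 1.70 and 3.72 TPM in GC+GW9662, was among the genes that did not pass.

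The 13 protein genes of the mitochondrial chromosome, the partners of these subunits, followed a different order of groups. Their sum was 34067 and 32332 TPM (Control), 8661, 10244 and 9457 TPM (GC) and 18800, 15142 and 18961 TPM (GC+GW9662), lowest in GC and highest in Control. The summed nuclear genes thus stood at 0.609 and 0.719 times the mitochondrially encoded sum in Control, 2.94, 1.57 and 2.04 times in GC and 2.06, 2.96 and 2.15 times in GC+GW9662. Of the 12 that could be tested 11 were lower in GC than in Control, beside 39.1% of all tested genes. In GC+GW9662 against GC 7 were higher and 2 lower, beside 28.3% and 33.5% of all tested genes. The complex I gene mt-Nd1 held 11114 and 10811 TPM (Control), 1292, 941 and 1032 TPM (GC) and 8403, 6711 and 8562 TPM (GC+GW9662), a change of -3.34 in GC against Control (adjusted p = 2.2e-06). The complex IV gene mt-Co1 held 6764 and 6507 TPM (Control), 3757, 4255 and 4045 TPM (GC) and 4431, 3969 and 4556 TPM (GC+GW9662), a change of -0.72 in GC against Control (adjusted p = 0.00065) and 0.10 in GC+GW9662 against GC (adjusted p = 0.37).

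The tricarboxylic acid cycle, which feeds the chain with NADH and succinate, had no enzyme that passed as higher than Control on the TPM scale, which changed with scaling. Of 14 tested enzymes 9 were lower in GC than in Control and 0 higher (39.1% of all tested genes were lower), 7 were higher and 4 lower in GC+GW9662 than in GC (28.3% and 33.5%), and 8 were lower and 0 higher in GC+GW9662 than in Control by limma (48.6% lower). Their medians in the comparisons with GC+GW9662 were 0.19 against GC and -0.63 against Control, where all tested genes had -0.11 and -0.50. Under median-ratio scaling the last comparison gave 4 higher and 4 lower, and with the length trend removed 4 higher and 3 lower. Idh2, the NADP-linked isocitrate dehydrogenase of the matrix, fell by 3.45 in GC against Control (adjusted p = 1.4e-06), from 85.7 and 77.2 TPM to 7.61, 5.67 and 6.44 TPM, and stood at 60.4, 58.2 and 68.0 TPM in GC+GW9662. Slc25a4, the ADP/ATP carrier that exports the product of complex V, rose by 1.82 in GC+GW9662 against GC (adjusted p = 5.5e-06), at 561 and 564 TPM (Control), 286, 220 and 250 TPM (GC) and 857, 921 and 876 TPM (GC+GW9662). Ucp2, an uncoupling protein homolog common in macrophages, fell by 3.45 in GC against Control, with values of 523 and 495 TPM (Control), 37.8, 54.0 and 46.4 TPM (GC) and 314, 280 and 303 TPM (GC+GW9662). Of the 7 tested genes of uncoupling and exchange 5 were higher and 0 lower in GC+GW9662 against GC, and Ucp1, the uncoupler of brown fat, was at 0 TPM in 7 libraries.

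Of 12 tested regulators of mitochondrial biogenesis, 1 was higher and 8 lower in GC+GW9662 than in GC (median -1.08). Among all tested genes 28.3% were higher and 33.5% lower (median -0.11). The counts against Control were also 1 and 8 (median -1.02), but they became 5 higher and 3 lower with the length trend removed (median -0.12) and 4 and 5 under quantile normalization. Gabpa, the DNA-binding part of GABP, held 32.2 and 33.2 TPM (Control), 15.1, 52.3 and 39.7 TPM (GC) and 5.24, 5.05 and 4.95 TPM (GC+GW9662). It fell by 2.43 against GC (adjusted p = 0.001) and by 2.47 against Control (adjusted p = 0.0028). Twnk, the helicase of mitochondrial DNA, fell by 2.05 in GC+GW9662 against GC, with values of 7.71 and 7.11 TPM (Control), 14.9, 19.3 and 19.6 TPM (GC) and 4.55, 2.57 and 3.71 TPM (GC+GW9662). Nrf1 fell by 1.48 and Yy1 by 1.51 in GC+GW9662 against GC (adjusted p = 0.00057 and 0.0043). The gene that rose was Esrra, the estrogen-related receptor alpha, at 65.3 and 63.3 TPM (Control), 47.2, 31.8 and 39.3 TPM (GC) and 94.4, 90.2 and 88.5 TPM (GC+GW9662), a change of 1.20 against GC (adjusted p = 0.00023). Ppargc1a and Ppargc1b, which encode PGC-1 alpha and beta, were under 1 TPM in all 8 libraries. With the length trend removed 1 was higher and 7 lower in GC+GW9662 against GC.

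Assembly factors of complexes II to V were split between rises and falls. For complex IV 12 of 22 tested factors were higher and 7 lower in GC+GW9662 than in GC (median 0.73), for complex III, with cytochrome c1, 5 of 7 were higher and 2 lower (0.62), and for complex V 3 of 4 were higher and 1 lower (0.55). Of the 4 complex II factors 2 were higher and 1 lower (0.50). Among all tested genes 28.3% were higher and 33.5% lower in GC+GW9662 against GC. Uqcc2, an assembly factor for cytochrome b, held 268 and 311 TPM (Control), 177, 86.1 and 119 TPM (GC) and 640, 767 and 628 TPM (GC+GW9662), a rise of 2.46 against GC (adjusted p = 7e-05). Ttc19, which takes part in maturation of complex III, fell by 1.66 in the same comparison, with values of 13.1 and 12.2 TPM (Control), 19.2, 28.6 and 25.2 TPM (GC) and 7.78, 6.28 and 6.84 TPM (GC+GW9662). Cyc1, cytochrome c1 itself, rose by 0.87 (adjusted p = 0.0039). Sco2, a copper chaperone for complex IV, was highest in GC instead, at 14.0 and 12.1 TPM (Control), 29.3, 28.5 and 32.3 TPM (GC) and 13.7, 15.8 and 15.3 TPM (GC+GW9662), and fell by 0.96 in GC+GW9662 against GC (adjusted p = 0.00041). Electron carriers and coenzyme Q synthesis gave 5 higher and 4 lower of 14.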

How the data were processed

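RNA was measured in 8 mouse libraries made by the Smart-Seq2 protocol, per the labels' protocols. The authors deposited TPM for each gene in each library. Trimming, alignment and counting tools named in the submitters' processing notes are fastp, HISAT2 2.1.0 and featureCounts. Genome build and annotation are not given in the sources used here. Exon lengths were taken from GENCODE M21, whose starts and ends fit 97.6% of rows. TPM keeps no depth. From steps between low values, 1 read was worth an estimated 0.0806 to 0.100 TPM in a gene of 1000 exon bases. By those steps GC+GW9662 libraries held an estimated 25214812, 25256865 and 26688047 reads in genes of known exon length. GC libraries held 27510646, 39322626 and 38386168, and Control libraries 36203062 and 38077123. Whether this difference bears on the changes was not tested. Groups follow the labels, and Control replicate 2 is the library bracketed C3. Atp5o stood on 2 rows with equal values and was used once.

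All 14985 genes that reached 1 TPM in 2 or more libraries entered a fit of group means over the 8 libraries on the log2(TPM + 1) scale (limma 3.58.1, R 4.3.3, data.table package 1.17.8), with a prior that followed mean expression. Tests were two-sided, and Benjamini-Hochberg adjusted p-values over all genes were called at 0.05 in each of 3 comparisons. The pseudocount of 1 understates changes of low genes. The rule for named genes took a list of subunits, the 2 largest passing rises and falls per complex with at least 5 TPM in a compared group, and the 2 passing genes with the smallest adjusted p from each related list. Not all of the latter are described, and other genes named, such as Ndufab1, Atp5d, Sco2, Cyc1, Gabpa, Nrf1 and Yy1, were chosen after their values were seen. Members and gene lists were chosen with earlier results of these data known. The fit was tested on simulated data, but no outcome of that is given here and no result above rests on it. Alternatives were pseudocounts, filters, scalings, removal of a length trend, a constant prior, compared groups alone, replicate blocks and leaving out each library. Near-identical genes were sought with BLAST 2.17.0, and Python 3.11.15, pandas 2.3.3, numpy 2.4.6 and matplotlib 3.10.9 were used for joins and plots. Protein sequences were not compared. Single-gene values of 2 genes are not reported here.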

Additional observations from a re-analysis of the deposited data

How the results depend on the processing

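The comparisons with GC+GW9662 kept their direction under every alternative run. Higher genes against GC numbered 67 to 75. Their median change was 1.32 with median-ratio scaling, 1.03 with quantile normalization, 1.03 after rescaling without mitochondrial and the top 20 genes, and 0.96 with the length trend removed. Leaving out 1 library gave 68 to 75 higher, 3 to 5 lower and medians of 1.03 to 1.36. Against Control the median was 1.56 with median-ratio scaling and 0.76 with the length trend removed. Leaving out 1 library gave 45 to 69 higher, 3 to 4 lower and medians of 0.81 to 0.93.

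GC against Control depended on scaling. Median-ratio scaling gave 17 higher, 5 lower and a reversed median of 0.22, quantile normalization 10, 16 and -0.083, rescaling 12, 11 and -0.12, and the length trend 11, 18 and -0.12. Compared groups alone gave 16 lower. Leaving out 1 library gave 3 to 10 higher, 10 to 49 lower and medians of -0.50 to -0.14. Uqcrc2 reversed to 0.090 with median-ratio scaling. Scaling moved the median of all genes from -0.38 to 0.04 in GC against Control and from -0.50 to 0.01 in GC+GW9662 against Control. Relative to it, the genes of the chain stood at 0.06 and 0.18 in the former and at 1.39 and 1.55 in the latter. The cause of these shifts was not tested.

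Same-numbered libraries did not deviate together (correlations of -0.16 to 0.08), so the numbers were not taken as pairs. Either replicate block gave 2 higher and 14 lower in GC against Control, and 71 or 72 higher in GC+GW9662 against GC. Depth was only estimated, from steps between low values. By that estimate Cox6a2 rested on 3 to 38 reads a library, Cox4i2 on 3.23 to 53.8 and Cox7a1 on 1.1 to 51.9, and no interval was computed from these.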
